A study of Mus musculus with 6 samples.

Results

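Endothelial cells line the blood vessels of brown adipose tissue (BAT), and 10 genes that mark these cells or direct vessel growth were read here in interscapular BAT (iBAT) of control and *ob/ob* mice. The 10 genes, of 20630 named on the array, are *Pecam1*, *Cdh5*, *Kdr*, *Flt1*, *Tek*, *Tie1*, *Vegfa*, *Vegfb*, *Vwf*, and *Eng*. They were chosen by symbol, as the probes whose RefSeq accession belongs to these genes, a rule that uses no measured value, although the genes were proposed with earlier results of these data known. That gave 12 probes, with *Kdr* and *Vegfa* on 2 probes each and every other gene on 1. All 12 passed the filter on dim probes, which asked for a signal well above background on at least 3 of the 6 arrays.

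BAT is among the most densely vascularized tissues, since its capillaries bring the oxygen and fuel that heat production uses and carry the heat away. Vessel growth is directed chiefly by vascular endothelial growth factor (VEGF), which cells around the vessel secrete and which endothelial cells sense through receptor tyrosine kinases, while the angiopoietins and the TIE receptors govern vessel maturation and quiescence. In brown fat, adrenergic drive and low oxygen are known to raise *Vegfa*.

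The samples were iBAT of 16-week-old male mice with a C57BL/6 background, 3 labeled with the genotype control and 3 with *ob/ob*. *ob/ob* mice carry a loss-of-function mutation of leptin in every cell and become obese, so the comparison is of whole-body leptin deficiency with obesity rather than of a change made in fat or vessels. The labels describe the genotype of the controls by the word control alone and do not say whether a sample is a single mouse or a pool. Where samples are not separate animals, the p values measure only the spread between these samples. RNA of the whole tissue was labeled with 1 dye and hybridized to 1 Agilent array per sample. Because whole tissue was used, fewer endothelial cells and less RNA per endothelial cell cannot be told apart in any value below.

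The arrays of a group did not resemble each other equally. Across the 35448 probes tested, the Spearman correlation of control 3 was at least 0.915 with each of *ob/ob* 1 and 2 but at most 0.730 with the other controls. *ob/ob* 3 was likewise nearer to control 1 (0.858) than to its own group (at most 0.573). The median signal of the spike-in probes was lowest for *ob/ob* 3, at 4.01 log2 units, while the other 5 arrays lay between 6.19 and 7.10. Control 1, control 3, and *ob/ob* 1 were read in the same scan, and the other arrays each in a scan of their own. Results that rest on control 3 or *ob/ob* 3 are therefore also given without these arrays.

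The promoters of the members whose values are followed most closely below show how differently they are built. RefSeq windows of assembly GRCm38.p6 were held for 7 of the 10 genes, and *Pecam1*, *Cdh5*, and *Vwf* had none. Each line gives the 250 bases before an annotated start, 5′ to 3′ on the gene's strand, in lower case. Capitals mark AGGAAG, the core bound by ETS factors, which many endothelial genes carry, ACGTG, the core of the hypoxia response element, and GGGCGG, the GC box, each in either orientation. *Kdr* and *Flt1* are shown because they are the VEGF receptors, *Tek* as the angiopoietin receptor, and *Vegfa* and *Vegfb* because they are the ligands.
Kdr, chr5:75978456-75978705, minus strand: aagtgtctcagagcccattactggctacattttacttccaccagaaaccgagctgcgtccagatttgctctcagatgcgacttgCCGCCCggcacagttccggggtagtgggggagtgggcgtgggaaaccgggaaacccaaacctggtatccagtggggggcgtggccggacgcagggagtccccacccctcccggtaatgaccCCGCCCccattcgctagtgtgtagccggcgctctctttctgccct
Flt1, chr5:147726012-147726261, minus strand: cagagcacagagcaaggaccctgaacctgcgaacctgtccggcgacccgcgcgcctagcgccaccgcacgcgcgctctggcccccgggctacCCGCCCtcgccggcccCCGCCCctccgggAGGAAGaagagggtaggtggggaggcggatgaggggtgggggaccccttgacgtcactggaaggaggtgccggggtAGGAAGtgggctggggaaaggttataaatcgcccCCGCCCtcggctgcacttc
Tek, chr4:94739039-94739288, plus strand: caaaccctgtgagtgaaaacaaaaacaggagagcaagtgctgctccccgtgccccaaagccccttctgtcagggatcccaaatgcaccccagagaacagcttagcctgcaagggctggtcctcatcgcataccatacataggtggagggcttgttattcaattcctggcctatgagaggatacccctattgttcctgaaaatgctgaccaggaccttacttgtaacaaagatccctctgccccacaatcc
Vegfa, chr17:46032378-46032627, minus strand: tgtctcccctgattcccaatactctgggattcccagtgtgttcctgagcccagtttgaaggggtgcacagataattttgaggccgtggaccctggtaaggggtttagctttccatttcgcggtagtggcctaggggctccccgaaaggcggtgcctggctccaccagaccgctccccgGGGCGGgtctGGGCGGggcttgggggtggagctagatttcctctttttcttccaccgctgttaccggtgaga
Vegfb, chr19:6987652-6987901, minus strand: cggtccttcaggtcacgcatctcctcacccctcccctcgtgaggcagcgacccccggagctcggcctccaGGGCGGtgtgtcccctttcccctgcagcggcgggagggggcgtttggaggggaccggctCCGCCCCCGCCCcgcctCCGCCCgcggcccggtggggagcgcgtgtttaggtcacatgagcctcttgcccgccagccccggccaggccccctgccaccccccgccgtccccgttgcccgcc

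In these windows, *Flt1* held 2 ETS cores and 3 GC boxes, *Kdr* 2 GC boxes, *Vegfa* 2 GC boxes, *Vegfb* 4 GC boxes, and *Tek* none of the 3 motifs. The GC boxes of *Vegfb* lie so close that 2 of them abut. Among the windows not printed, *Tie1* held 1 ETS core, *Eng* 2 ETS cores, and a second window of *Vegfa* 1 hypoxia core and 1 GC box. That second window lies before another annotated start, downstream of the printed one and within the gene. Its hypoxia core falls in protein-coding sequence of *Vegfa* and is not read as a promoter element. Of all 32851 windows of this length, 29.5% held AGGAAG, 16.6% held ACGTG, and 32.7% held GGGCGG on either strand. A match describes these letters only, and a window without one says nothing of the factor.

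In the mean of the *ob/ob* arrays, 9 of the 10 genes had a lower signal than in the controls and 1 (*Pecam1*) a higher one, but the arrays of the groups overlapped for all but *Vegfb* and the brighter probe of *Vegfa*. Signals are quantile normalized between arrays and given in log2 units, so that a difference of 1 unit is a doubling, and differences between groups are *ob/ob* minus control. Each comparison was made with limma over all probes tested. The median difference of the 10 genes was −0.82, beside −0.073 over all probes tested, of which 56.4% were lower. At an adjusted p under 0.05, 0 of the 10 genes passed, as did 0% of all probes tested. At an unadjusted p under 0.05, 1 gene passed (*Vegfa*, lower), against 3.51% of all probes tested (1.52% lower and 1.99% higher). The groups did not overlap for 2 genes (*Vegfa* and *Vegfb*, both lower), against 7.92% of all probes tested (4.19% with *ob/ob* lower and 3.74% with *ob/ob* higher). Under scaling to the 75th percentile of each array in place of quantile normalization, the median over all probes moved to −0.32 and that of the 10 genes to −1.07. Relative to all probes the genes' median was −0.74 under either scaling, and each of the 10 genes kept its sign.

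*Pecam1* and *Cdh5* encode the adhesion molecules by which endothelial cells hold to each other, and on these arrays their signals ran in opposite directions. *Pecam1*, the platelet endothelial adhesion molecule that is also found on platelets and leukocytes, was 10.999, 11.19, and 12.49 on the 3 control arrays, in the order of their numbers, and 12.44, 12.58, and 9.80 on the 3 *ob/ob* arrays. *ob/ob* 3 was the lowest array and control 3 lay with *ob/ob* 1 and 2, so the groups overlapped. Its mean was 11.56 ± 0.81 (SD, n = 3) on the control arrays and 11.61 ± 1.57 (n = 3) on the *ob/ob* arrays, a difference of 0.048 (standard error 0.86, limma, unadjusted p = 0.957). The sign of so small a difference is not fixed. Without control 1, control 2, *ob/ob* 1, or *ob/ob* 2, it was −0.23, −0.14, −0.37, and −0.44. The place of control 3 depends on the scaling. In the scanner values before normalization between arrays, *Pecam1* was 4010, 3330, and 3887 on the control arrays. Control 3 thus lay between the other controls there. The *ob/ob* arrays were at 4533, 5987, and 942, with *ob/ob* 3 again the lowest.

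*Cdh5*, or VE-cadherin, the cadherin of the endothelial adherens junction, was 11.51, 11.64, and 8.10 on the control arrays and 6.55, 5.99, and 10.66 on the *ob/ob* arrays. Control 1 and control 2 were highest, *ob/ob* 3 stood next to them, and control 3 stood next to *ob/ob* 1 and 2. The mean was 10.42 ± 2.005 (SD, n = 3) on the control arrays and 7.73 ± 2.55 (n = 3) on the *ob/ob* arrays, and the difference of −2.69 (standard error 1.52, limma, unadjusted p = 0.124) did not exceed the spread between arrays. The scanner values before normalization between arrays split the arrays in the same way, with signals of 5959, 4531, and 146 on the control arrays and 84.0, 80.9, and 1683 on the *ob/ob* arrays.

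VEGF acts mainly through the kinase encoded by *Kdr*, which drives endothelial proliferation and permeability. Its brighter probe was 12.18, 11.82, and 8.28 on the control arrays and 6.32, 5.75, and 9.87 on the *ob/ob* arrays. As for *Cdh5*, the third array of each group lay toward the other group, and the groups overlapped. The difference of −3.44 (standard error 1.45, 95% interval −6.95 to 0.07) was the largest in size of the 10 genes, and its unadjusted p was 0.0534 (limma). With the mean of both *Kdr* probes in place of the brighter one, it was −2.04 (limma, unadjusted p = 0.0238), smaller in size than the −2.69 of *Cdh5*. This probe is printed in 10 spots per array, of which 9 or 10 were usable, and their SD was 0.07 to 0.09 log2 units on each array.

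*Flt1*, the receptor that binds VEGF tightly with little kinase activity and in its soluble form acts as a decoy, was 11.38, 11.39, and 8.10 on the control arrays and 7.37, 7.44, and 10.18 on the *ob/ob* arrays. Control 3 again stood nearer to *ob/ob* 1 and 2 than to its own group. The difference was −1.96 (standard error 1.18, limma, unadjusted p = 0.144).

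The ligand *Vegfa*, the principal growth factor for vessels, separated the groups on its brighter probe but not on its dimmer one. The brighter probe was 8.02, 8.56, and 7.97 on the control arrays and 6.77, 6.76, and 6.05 on the *ob/ob* arrays. Every *ob/ob* array lay below every control array, control 3 and *ob/ob* 3 included. The mean was 8.18 ± 0.33 (SD, n = 3) on the control arrays and 6.53 ± 0.41 (n = 3) on the *ob/ob* arrays, a difference of −1.66 (standard error 0.37, 95% interval −2.56 to −0.75), or 3.16-fold lower. The unadjusted p was 0.00391 by limma, and the exact permutation test over arrays, two-sided, gave p = 0.10, the smallest that 3 arrays against 3 allow. Adjusted over all probes tested by the Benjamini-Hochberg method, the limma p was 1.0, as it was for each of the 12 probes. On the dimmer probe the difference was −1.17 with overlapping groups, and with the mean of both probes it was −1.41 (limma, unadjusted p = 0.0661), again with overlap. Within the shared scan, *ob/ob* 1 differed on the brighter probe from the mean of control 1 and control 3 by −1.22.

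*Vegfb*, a ligand of the *Flt1* product that has been linked to fatty acid uptake by endothelium, had a small difference. It was 6.83, 6.77, and 6.82 on the control arrays and 6.71, 6.47, and 6.29 on the *ob/ob* arrays, so the *ob/ob* arrays were all lower. The difference was −0.31 (standard error 0.30, limma, unadjusted p = 0.338; exact permutation p = 0.10, two-sided). After quantile normalization, the SD of the 3 control arrays, 0.03 log2 units, was the smallest of the 10 genes. It lay at the 0.37 percentile of all probes tested. Before normalization between arrays, *Vegfb* was 192, 167, and 71.9 on the control arrays and 92.3, 106, and 36.9 on the *ob/ob* arrays. In those scanner values the groups overlapped.

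*Tek* and *Tie1* encode the TIE receptors, of which *Tek* binds the angiopoietins and *Tie1* acts as its partner without a clear ligand of its own. *Tek* was 7.11, 6.75, and 4.99 on the control arrays and 4.80, 4.60, and 5.96 on the *ob/ob* arrays. Control 3 lay beside the 2 lowest *ob/ob* arrays, and the difference of −1.17 (standard error 0.68, limma, unadjusted p = 0.136) was within the spread. *Tie1* was 4.91, 4.93, and 4.01 on the control arrays and 3.76, 3.33, and 5.57 on the *ob/ob* arrays. *ob/ob* 3 was the highest of all only after quantile normalization. Before normalization between arrays, *Tie1* was 50.9, 53.0, and 12.3 on the control arrays and 14.9, 13.6, and 17.1 on the *ob/ob* arrays. Its signal was not well above background on control 3 and *ob/ob* 2. The difference was −0.40 (standard error 0.66, limma, unadjusted p = 0.566), and without *ob/ob* 2 it was 0.045.

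*Vwf*, the adhesive glycoprotein that endothelium stores for hemostasis, was 7.17, 7.44, and 6.39 on the control arrays and 6.15, 6.22, and 7.23 on the *ob/ob* arrays. *Eng*, or endoglin, the co-receptor for bone morphogenetic proteins on endothelium, was 6.49, 6.21, and 5.41 on the control arrays and 5.39, 5.59, and 6.21 on the *ob/ob* arrays. For both genes, control 1, control 2, and *ob/ob* 3 were the 3 highest arrays after quantile normalization. In the scanner values before normalization between arrays, this held for *Vwf* but not for *Eng*. There *Eng* was 151, 120, and 31.9 on the control arrays and 41.4, 63.7, and 34.0 on the *ob/ob* arrays. The differences were −0.47 (standard error 0.47, limma, unadjusted p = 0.355) for *Vwf* and −0.30 (standard error 0.43, limma, unadjusted p = 0.506) for *Eng*, neither beyond the spread.

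**Figure D1:**
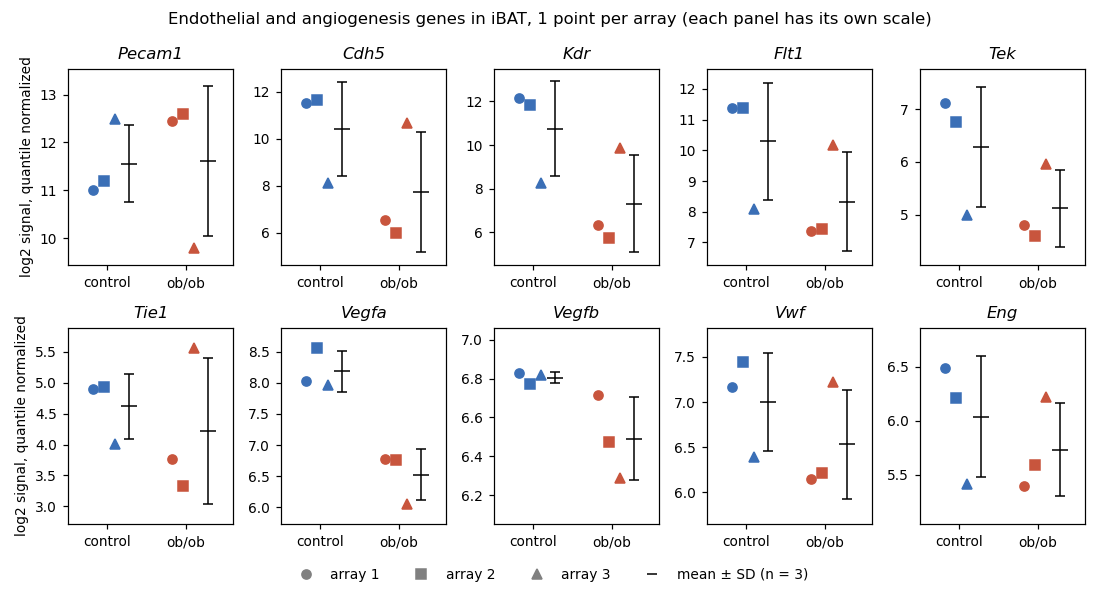
Quantile-normalized signal (log2 units, vertical axis) of the brightest probe of each of the 10 genes, with a point per array (circle, square, and triangle for arrays 1, 2, and 3; blue, control; red, *ob/ob*) and the mean ± SD of each group (n = 3). Each panel has its own scale. The triangles change sides in most panels, while in *Vegfa* all *ob/ob* arrays, from 6.05 to 6.77, lie below the controls, from 7.97 to 8.56.

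The third array of each group was then set against the other arrays of its group, which gives a description without a test, since a single array has no spread. Control 3 lay below the mean of control 1 and 2 for 8 of the 10 genes, all but *Pecam1* and *Vegfb*, as it did for 38.2% of all probes tested. The median over the 10 genes was −0.93, against 0.28 over all probes. The lowest were *Kdr* (−3.72), *Cdh5* (−3.47), and *Flt1* (−3.29), which stood at the 1.32, 2.09, and 3.04 percentiles of all probes. *Pecam1*, at 1.40, stood at the 89.1 percentile.

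*ob/ob* 3 differed from *ob/ob* 1 and 2 in the opposite sense. It lay above their mean for 7 of the 10 genes, all but *Pecam1*, *Vegfa*, and *Vegfb*, while it lay below for 60.5% of all probes tested. The median was 1.15 over the 10 genes and −0.47 over all probes. *Cdh5* was 4.39 higher, *Kdr* 3.83 higher, and *Flt1* 2.78 higher, at the 98.2, 97.0, and 91.5 percentiles, whereas *Pecam1* was 2.71 lower, at the 4.04 percentile. *Vegfa* on its brighter probe differed by −0.32 in control 3 and by −0.72 in *ob/ob* 3, near the middle of all probes at the 30.6 and 42.3 percentiles. The median over the 10 genes for *ob/ob* 3 depends on the scaling and was 0.16 with scaling to the 75th percentile. The count of 7 genes holds for quantile-normalized signals. In the scanner values before normalization between arrays, *ob/ob* 3 was the lowest *ob/ob* array for *Tek* and *Eng*. On *ob/ob* 1, 2, and 3 these values were 28.3, 33.2, and 25.3 for *Tek* and 41.4, 63.7, and 34.0 for *Eng*.

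**Figure D2:**
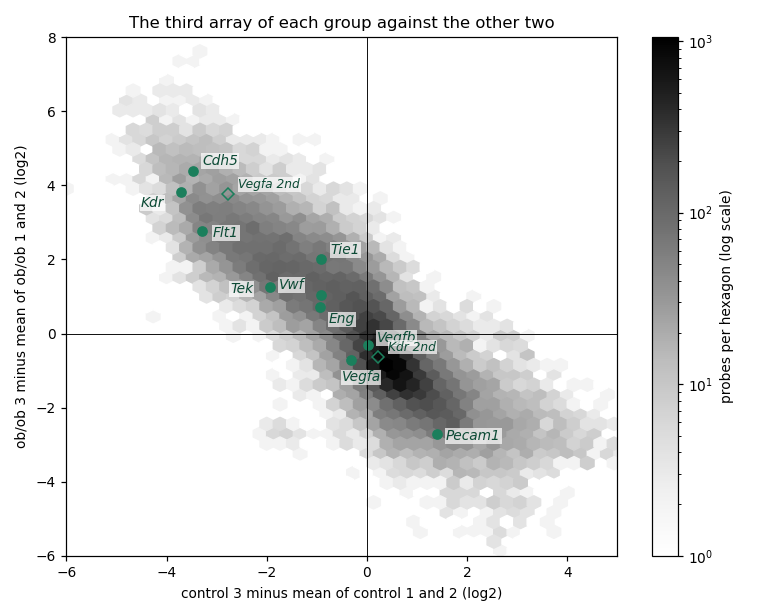
Signal of control 3 minus the mean of control 1 and 2 (horizontal axis, log2 units) and of *ob/ob* 3 minus the mean of *ob/ob* 1 and 2 (vertical axis, log2 units), with gray hexagons for the number of all probes tested (log scale) and green points for the brightest probe of each of the 10 genes (open diamonds, second probes of *Kdr* and *Vegfa*). *Cdh5*, *Kdr*, and *Flt1* lie at the upper left edge of the cloud, *Pecam1* lies at the lower right, and *Vegfa* and *Vegfb* lie near the center.

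Leaving out control 3 alone, 5 of the 10 genes had an unadjusted limma p under 0.05, beside 8.48% of all probes tested, and 6 had no overlap between groups, beside 23.2%. Leaving out *ob/ob* 3 alone, 5 passed, beside 9.83%, and 8 had no overlap, beside 29.0%. None of the 10 passed an adjusted p under 0.05 in either case, nor did any other probe. Leaving out both arrays gave 9 of 10 genes past an adjusted p under 0.05, but 45.9% of all probes tested passed there too (52% at an unadjusted p under 0.05, where 9 of 10 genes passed), and 10 of 10 genes without overlap, beside 73.1%. These 2 arrays were picked for leaving out with their likeness to the other group known, so the fit of 2 against 2 arrays describes the 4 remaining arrays and does not serve as a test of *ob/ob* against control. With array weights, which limma set lowest for the third arrays, 9 of 10 genes passed an adjusted and an unadjusted p under 0.05, beside 49.1% and 55.3% of all probes tested.

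Within the shared scan, where only *ob/ob* 1 can be set against control 1 and control 3, the difference was −3.91 for *Kdr*, −3.26 for *Cdh5*, and −2.37 for *Flt1*. A limma fit of these 3 arrays put 2 genes (*Kdr* and *Cdh5*) and 0.418% of all probes tested at an unadjusted p under 0.05, but it holds a single *ob/ob* array, which is assumed to vary like the controls, and is not read as a test. Control 1 and control 3, which share the scan, were 12.18 and 8.28 on *Kdr* and 11.51 and 8.10 on *Cdh5*, and the part of the scan in the results was not tested.

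Among the 4 arrays that remain without the third arrays, the differences of the brightest probes were −5.96 for *Kdr*, −5.30 for *Cdh5*, −3.98 for *Flt1*, −2.23 for *Tek*, −1.53 for *Vegfa*, −1.38 for *Tie1*, −1.12 for *Vwf*, and −0.86 for *Eng*. *Pecam1* was 1.42 higher, against the direction of *Cdh5*, its partner at the junction. *Vegfb*, at −0.21, did not pass (limma, adjusted p = 0.511), nor did the dimmer probe of *Kdr*, at −0.36 (limma, adjusted p = 0.321). The brighter *Vegfa* probe was close to its difference over all 6 arrays, while the dimmer one moved from −1.17 to −3.35 and *Cdh5* moved from −2.69.

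**Figure D3:**
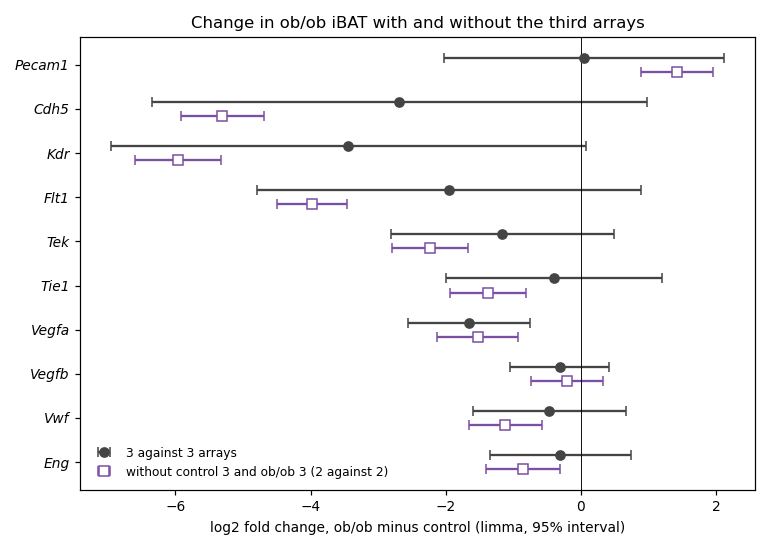
Difference of *ob/ob* minus control (horizontal axis, log2 units) of the brightest probe of each of the 10 genes with its 95% interval from limma, over 3 against 3 arrays (filled points) and over 2 against 2 arrays without control 3 and *ob/ob* 3 (open squares). With all arrays, the *Vegfa* interval, −2.56 to −0.75, is the one that leaves out 0, and without the third arrays the *Vegfb* interval is the one that includes it.

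*Kdr* and *Vegfa* can each be read from a second, dimmer probe, and for both genes the probes differed in how they placed the third arrays. The second *Kdr* probe was 7.45, 8.0, and 7.94 on the control arrays and 7.50, 7.23, and 6.74 on the *ob/ob* arrays, a difference of −0.64 (standard error 0.36, limma, unadjusted p = 0.126). On this probe, control 3 lay 0.22 above its group and *ob/ob* 3 lay 0.63 below, so the shift of the third arrays seen on the 10-spot probe was not seen here. The gap between the *Kdr* probes was 3.94 log2 units for control 3 and 4.46 for *ob/ob* 3, at the 95.4 and 94.2 percentiles of 4726 genes with more than 1 probe. In the *ob/ob* minus control difference the gap was 2.80, at the 99.1 percentile, where the median gap was 0.43.

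For *Vegfa*, it was the dimmer probe that followed the pattern of *Cdh5*. It was 7.22, 6.89, and 4.28 on the control arrays and 3.75, 3.66, and 7.47 on the *ob/ob* arrays, with a difference of −1.17 (standard error 1.27, limma, unadjusted p = 0.393). The groups overlapped on this probe, which was well above background on 3 control and 2 *ob/ob* arrays. Control 3 lay 2.78 below its group and *ob/ob* 3 lay 3.77 above. The gap between the *Vegfa* probes was 2.45 for control 3 and 4.48 for *ob/ob* 3, at the 81.3 and 94.3 percentiles of the same 4726 genes. In the *ob/ob* minus control difference it was 0.49, at the 54.6 percentile. The probes carry RefSeq accessions of different *Vegfa* transcripts, whereas those of *Kdr* carry the same one.

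**Figure D4:**
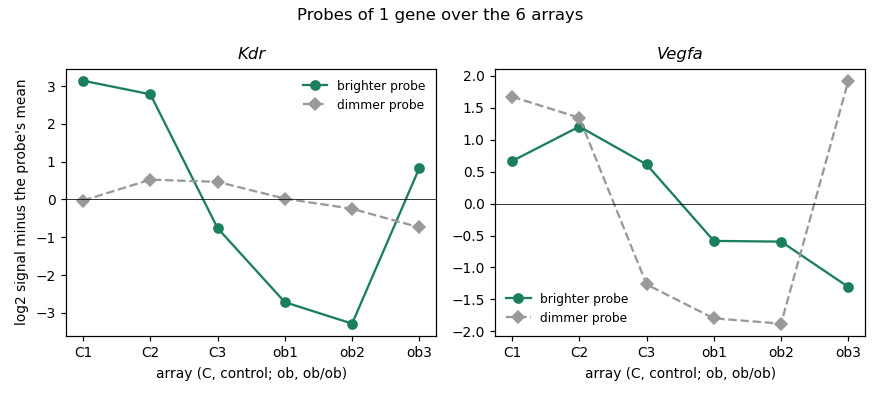
Signal of each probe of *Kdr* (left) and *Vegfa* (right) minus that probe's mean over the 6 arrays (vertical axis, log2 units), by array (C, control; ob, *ob/ob*). The green brighter probe of *Kdr* and the gray dimmer probe of *Vegfa* drop in control 3 and climb in *ob/ob* 3, while on those arrays the other probe of each gene lies within 0.72 log2 units of the mean of its group's remaining arrays.

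The same reading was made for the wider pathways around the 10 genes, on 95 further genes tested, from lists written from general knowledge. Of these, 67 were lower and 28 higher in the mean of the *ob/ob* arrays, or 70.5% lower beside 57.2% of the 19011 genes tested. Their median difference was −0.43, beside −0.086 over all genes. An unadjusted limma p under 0.05 was reached by 4 genes, or 4.21%, beside 3.73% of all genes, and 0 passed an adjusted p under 0.05. The median of control 3 minus control 1 and 2 was −1.40 in these genes, beside 0.23 over all genes, and that of *ob/ob* 3 minus *ob/ob* 1 and 2 was 1.58, beside −0.36. Both medians have the sign seen in *Cdh5*, *Kdr*, and *Flt1*.

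The 4 genes were *Bmpr2*, *Aqp7*, *Cxcl12*, and *Apln*. *Bmpr2*, the type II receptor for bone morphogenetic proteins that signals with endoglin, was 8.41, 8.71, and 8.28 on the control arrays and 6.51, 6.33, and 7.49 on the *ob/ob* arrays, a difference of −1.69 (limma, unadjusted p = 0.00603) without overlap. *Aqp7*, a glycerol channel of adipocytes and capillaries, differed by −2.01 (limma, unadjusted p = 0.00594), also without overlap. *Cxcl12*, the chemokine that guides vessel sprouts and retains leukocytes, differed by −2.52 (limma, unadjusted p = 0.0467), with control 3 at 7.53 below *ob/ob* 3 at 8.42. *Apln*, the apelin peptide of sprouting tip cells, was higher by 1.58 (limma, unadjusted p = 0.0314), at 4.20 to 5.34 on the control arrays and 5.90 to 7.50 on the *ob/ob* arrays. The adjusted limma p of each was 1.0.

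Next to *Vegfa* and *Vegfb*, the other VEGF family ligands had small differences, with *Vegfc* at −0.25, *Vegfd* at 0.46, and *Pgf* at 0.41, and all 3 overlapped. The receptors beside *Kdr* and *Flt1* were split. The co-receptors *Nrp1* (−0.80) and *Nrp2* (−1.13) were lower in the mean and *Flt4*, the receptor of lymphatic vessels, was higher (1.53), with signals of 5.12, 5.53, and 9.27 on the control arrays and 9.33, 9.05, and 6.13 on the *ob/ob* arrays. *Flt4* thus placed the third arrays with the other group as well, in the direction of *Pecam1*. In the TIE system, *Ptprb*, the endothelial phosphatase that restrains *Tek* and VE-cadherin signaling, differed by −2.73 (limma, unadjusted p = 0.103).

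Of the 16 genes of endothelial junctions and surface, 12 were lower and 4 higher, with a median of −1.10. *Mcam*, an adhesion molecule of endothelium and pericytes, had the lowest p (1.73, limma, unadjusted p = 0.0561), and *Pecam1*, *Jam2*, and *Clec14a* were the others with a positive difference. For 11 transcription factors of endothelial identity, the median difference of control 3 from its group was −3.33 and that of *ob/ob* 3 was 3.50. Of these genes, 10 were lower in the mean, with a median of −1.30, and the shear-responsive *Klf2* had the lowest p (−2.88, limma, unadjusted p = 0.116). All 10 genes of the endoglin and BMP receptor pathway and all 5 Notch genes tested were lower in the mean, with medians of −0.28 and −0.72. These counts rest on the third arrays. Without control 3 and *ob/ob* 3, *Smad1* (0.52), *Id3* (0.34), *Notch1* (0.72), and *Dll4* (0.31) were higher, and the other genes of these lists stayed lower. The gene of lowest p among the Notch genes was *Hey1* (−1.68, limma, unadjusted p = 0.155).

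The remaining lists held both directions. Capillary lipid handling genes were lower in 6 of 8 (median −0.83), hemostasis genes in 4 of 7, with *Vwf* of lowest p, and other angiogenic ligands in 4 of 8. Tip cell genes were lower in 2 of 6 (median 0.080) and angiogenesis inhibitors in 3 of 7 (median 0.43), where *Adamts1* had the lowest p (−1.88, limma, unadjusted p = 0.236). The hypoxia response list leaves out *Vegfa* and holds both genes that respond to low oxygen, as *Vegfa* does, and regulators of that response. Its genes were lower in 10 of 13, with a median of −0.22. The lowest p was that of *Epas1*, which encodes a regulator (−0.67, limma, unadjusted p = 0.230). None of these medians was tested.

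The medians depended on single arrays. Leaving out 1 array in turn, they changed sign for angiogenesis inhibitors (−0.10 to 0.34, below 0 without control 3 or *ob/ob* 3), tip cell genes (−0.087 to 0.15), other angiogenic ligands (−0.63 to 0.22), and hemostasis genes (−0.34 to 0.13). Those of the transcription factors ran from −2.47 to −0.59, of the BMP receptor pathway from −0.97 to −0.23, of the junction genes from −1.78 to −0.74, and of the capillary lipid handling genes from −1.61 to −0.39, and in these 4 lists both lowest values came without control 3 or *ob/ob* 3. The Notch genes ran from −1.02 to −0.48 and the hypoxia response genes from −0.51 to −0.063. *Angpt1* and *Hey2* did not pass the filter on dim probes.

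Markers of other cell types were read beside the 10 genes, and their part in the results was not tested. Skeletal muscle markers had the widest span, with medians of 9.98, 10.26, and 7.79 on the control arrays and 6.00, 6.18, and 12.49 on the *ob/ob* arrays, so that, as in *Cdh5*, control 1, control 2, and *ob/ob* 3 lay above the other 3 arrays. Their summed linear signal ranged from 4408 to 55584 on the control arrays and from 622 to 99107 on the *ob/ob* arrays, with *Myh4* the brightest. Pericyte and smooth muscle markers were lower in 8 of 10 (median −0.62, summed signal 2625 to 3294 and 1857 to 2922), although *Acta2*, the brightest, was higher (0.27). Their median signals were 7.63, 7.27, and 5.90 on the control arrays and 5.72, 5.53, and 7.23 on the *ob/ob* arrays, which splits the arrays as the muscle markers did. Macrophage markers were higher in 5 of 7 (median 0.53, 4366 to 15329 and 3228 to 5184), but *Itgam*, the brightest, was lower (−1.43). Lymphatic markers were higher in 3 of 4 (median 0.82, 143 to 862 and 373 to 860, *Flt4* brightest). *Prox1*, the defining transcription factor of lymphatic endothelium, was at 3.01 to 4.51 and well above background on 4 arrays.

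*Ucp1*, the uncoupling protein that defines the labeled tissue, was well above background on every array. It and the other 7 brown adipocyte markers were lower in the mean of the *ob/ob* arrays (median −2.41), with a summed signal of 5944 to 90805 on the control arrays and of 3959 to 12251 on the *ob/ob* arrays and *Cox8b* the brightest. White adipocyte markers had a median of −0.15 (973 to 2038 and 849 to 1471, *Retn* brightest) and pan-adipocyte markers a median of −0.015 (11799 to 80963 and 24591 to 89017, *Fabp4* brightest). Erythrocyte markers had a median of −0.37 (946 to 2706 and 609 to 5286, *Hba-a1* brightest) and lymphocyte markers a median of −0.43 (711 to 874 and 352 to 756, *Cd3e* brightest). The median signals of pan-adipocyte markers were 10.53, 10.26, and 8.59 on the control arrays and 8.95, 8.56, and 11.39 on the *ob/ob* arrays. Control 1, control 2, and *ob/ob* 3 were highest there too, as they were for brown adipocyte markers. This was not so for white adipocyte, macrophage, lymphatic, erythrocyte, or lymphocyte markers. Of 8 endothelial markers, 7 were among the genes lower in the mean and each was well above background on at least 4 arrays.

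**Figure D5:**
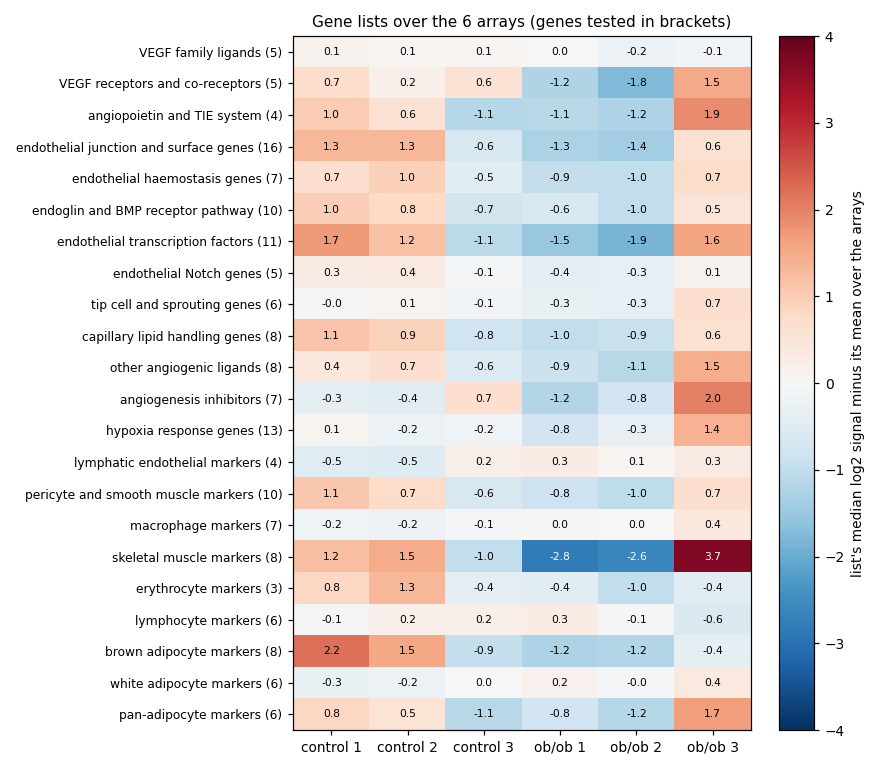
Median log2 signal of each gene list on each array minus its mean over the 6 arrays (color and printed value, log2 units; red, above; blue, below), with the number of genes tested in brackets. Most endothelial lists are red in control 1, control 2, and *ob/ob* 3 and blue in the other arrays. The skeletal muscle markers split the arrays in the same way with the widest span, and so do pericyte and smooth muscle markers and pan-adipocyte markers. Brown adipocyte markers are red in control 1 and control 2 only, and macrophage, lymphatic, lymphocyte, and white adipocyte markers do not show this split.

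The genes whose signals over the 6 arrays ran closest to those of *Cdh5* and *Vegfa* were taken from the 15884 genes detected on every array, by the root mean square difference of their centered log2 signals. Closest to *Cdh5* were *Ptprb* (0.154), *Tmem259* (0.162), *Rn28s1* (0.190), *Acss2* (0.222), and *Slc1a5* (0.257). *Ptprb* is the one of them held by the endothelial lists, and *Rn28s1* is a ribosomal RNA, with signals of 16.54, 16.41, and 13.42 on the control arrays and 11.67, 11.33, and 15.85 on the *ob/ob* arrays. Among the other members, *Kdr* ranked 18 (0.452), *Flt1* ranked 63 (0.676), and *Pecam1* ranked 14555 (3.18) in likeness to *Cdh5*. Closest to *Vegfa* were *Mpped1* (0.0783), *Ndst1* (0.105), *Ppl* (0.132), *Tuba8* (0.176), and *Ckmt1* (0.196), none of them in the lists above. These distances describe 6 arrays and carry no test.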

How the data were processed

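The series holds 6 single-dye Agilent arrays of iBAT RNA, 3 of control and 3 of *ob/ob* mice, grouped by the sample labels. For each array, the authors deposited spot intensity values from Agilent Feature Extraction (version 11.0.1.1), corrected for background within the array and not normalized between arrays. A second table that the authors deposited holds log2 values after quantile normalization in GeneSpring and served as an alternative (correlation with the scanner values 0.987 to 0.998).

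Outlier spots were left out, which removed 104 of 39429 probes. Intensities were averaged over spots on the log2 scale and quantile normalized. Probes with at least 50% of their spots well above background on at least 3 of 6 arrays were compared between groups by limma 3.58.1 (R 4.3.3), without covariates, with Benjamini-Hochberg adjustment over all 35448 probes. The brightest probe stood for a gene. RefSeq (assembly GRCm38.p6) gave symbols to 27234 of the 28684 probes with its accessions, and also the promoters. Probe sequences and positions were not used here. No spot was saturated, and 83.5% to 89.9% of spots per array lay well above background. The number of arrays limits the precision, and arrays carry no counts for intervals.

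The 10 genes, the gene lists, the tests, and the alternatives were chosen with earlier results of these data known. Beside the 10 genes, the genes named are those of each pathway list with an unadjusted p under 0.05 or, where none had one, the lowest p, the 5 nearest patterns to *Cdh5* and *Vegfa*, and the brightest marker of each cell type. The remaining VEGF family ligands and receptors, the junction genes of positive difference, *Smad1*, *Id3*, *Notch1*, *Dll4*, *Prox1*, and *Ucp1* were named after their values were seen. The code was tested on simulated data. Figures were made with Python (version 3.11.15) and matplotlib (version 3.10.9).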

Additional observations from a re-analysis of the deposited data

How the results depend on the processing

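The median difference of the 10 genes kept its sign under all 19 alternatives, from −1.47 with array weights to −0.49 with normexp background correction (offset 50). The genes past an unadjusted p under 0.05 (1 in the report) numbered 9 with array weights, 9 without control 3 and *ob/ob* 3, and 2 with the scan as a block, and 1 to 5 when leaving out each array in turn, with 5 without control 3 and 5 without *ob/ob* 3. The genes past an adjusted p under 0.05 (0 in the report) numbered 9 with array weights and 9 without both arrays, and 0 in each of the other 17 alternatives. Array weights gave control 3 and *ob/ob* 3 the lowest weights, 0.172 and 0.0821 against 1.41 to 6.74 for the others, and put 49.1% of all probes tested past the adjusted threshold. The genes without overlap (2 in the report) numbered 10 without both arrays, 1 with the mean of a gene's probes, 3 with scaling to the 75th percentile, and 2 to 8 when leaving out each array in turn. These are counts only, and the genes behind them need not include both *Vegfa* and *Vegfb*. The median of *ob/ob* 3 against *ob/ob* 1 and 2 was 0.16 with scaling to the 75th percentile, in place of 1.15. That scaling also changed the split of all probes at an unadjusted p under 0.05 from 705 higher and 540 lower to 139 higher and 312 lower. For the alternatives that use all arrays, the cause was not tested.

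The difference changed sign for *Pecam1* without control 1 (−0.23), control 2 (−0.14), *ob/ob* 1 (−0.37), or *ob/ob* 2 (−0.44), and for *Tie1* without *ob/ob* 2 (0.045). Leaving out each array in turn gave −0.44 to 0.95 for *Pecam1* and −1.07 to 0.045 for *Tie1*, the highest and the lowest of these being without *ob/ob* 3. *Vegfa* kept its sign throughout, from −1.85 with scaling to the 75th percentile to −1.18 with normexp, and missed an unadjusted p under 0.05 with the scan as a block (−1.22) and with the mean of its probes (−1.41). With the mean of its probes, *Kdr* passed it instead (−2.04). Whether the replicate numbers pair the samples cannot be told from these values. The deviations of same-numbered arrays from their group means correlated at −0.78, −0.66, and −0.85 across probes. Control 3 and *ob/ob* 3 stood apart from their groups in opposite senses, so these correlations can be negative with or without pairing. With the replicate number as a block, 1 of the 10 genes had an unadjusted p under 0.05, 0 passed the adjusted threshold, and the median was −0.82. The count of all probes at an unadjusted p under 0.05 was 359 with the block, in place of 1245.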
